A study of Mus musculus with 6 samples.

Results

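Glycolysis and hypoxia response genes were examined in fetal mouse lung in which Scap had been deleted from the respiratory epithelium. The 35 genes were chosen by name: 17 glycolytic enzymes, 4 sugar and lactate transporters, 4 kinases that switch glucose use, 4 genes for hypoxia-inducible factors (HIF) and the hydroxylases that control them, and 6 other HIF targets. Of the 35 genes, 31 had a probe set carrying their symbol alone, out of 18193 such genes on the array, and each was represented by its brightest probe set. Of these, 29 lay above the brightness limit for testing, a mean signal of 497.8 (the median of all probe sets), out of 10972 genes tested. Gapdh, Gpi1, Eno1 and Bnip3l had no single-symbol probe set and were not analysed here. Slc16a3 and Eno2 were too dim to test.

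Whole-lung RNA was taken shortly before birth (E18.5) and hybridised to 6 MOE430 V2 arrays. The 3 Scap-deleted samples carried an in vivo deletion in respiratory epithelial cells (Scap d/d), the other 3 were labelled control, and both groups came from a mixed background of FVB/N and B6. The sources used here name neither the promoter that drove the deletion nor the alleles of the controls. They also do not say whether each replicate was its own animal, and the p-values therefore cover only the spread of these samples, which may be technical. In whole lung, fewer cells of a type and less RNA per cell cannot be told apart.

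Glycolysis splits glucose into pyruvate, and lactate dehydrogenase turns pyruvate into lactate when oxygen is short. HIF factors are made of an oxygen-labile alpha subunit and a stable partner. With oxygen present, prolyl hydroxylases mark the alpha subunit for destruction. When oxygen falls, it escapes this mark and switches on genes for glucose transport, glycolysis and vessel growth. The fetal lung develops at low oxygen, and Epas1, the HIF2 alpha subunit, is known for its part in lung vessels and in alveolar type II cells. Scap carries SREBP transcription factors towards their activation, and SREBPs switch on sterol and fatty acid synthesis, whose acetyl units come from glucose through pyruvate.

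Array medians lay between 490.9 and 530.5 signal units. Scap itself read 1847, 3286 and 2702 in Scap-deleted lungs, against 7264, 4195 and 3080 in controls, so the groups overlapped (exact two-sided permutation test, p = 0.2; with 3 arrays a side no p below 0.1 can be reached). A second, dimmer Scap probe set read 221, 325 and 170 in Scap-deleted lungs, against 587, 648 and 74 in controls (exact two-sided permutation test, p = 0.8). Where these probe sets lie relative to the deletion is not stated, and cells outside the epithelium also express Scap. Of the lung marker lists, all 6 general epithelial, 4 of 5 alveolar type II, 4 of 4 alveolar type I and 5 of 5 endothelial genes lay above the brightness limit. The arrays numbered 3 in both groups stood apart from the other 4 on the first principal component, 36.6% of the variance. The second component, 21.1%, separated the groups, at 8.1, 10.5 and 10.3 in Scap-deleted arrays and -8.8, -11.7 and -8.4 in controls. Signals are given below in array order 1, 2 and 3 in each group, and each log2 difference is the Scap-deleted mean minus the control mean, with its limma standard error (SE).

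Promoters of 5 genes are shown because 3 of them (Slc16a1, Aldoc and Pgk1) belong to genes whose groups did not overlap, and the other 2 (Ankrd37 and Ldha) to HIF targets that were highest in the arrays numbered 3. The fourth gene with separate groups, Epas1, had no entry in the promoter table used here and was not searched for these letters. Each promoter shown is the 250 bases before the most upstream start listed in RefSeq's GRCm38.p6 table, read 5′ to 3′ on the gene's strand. Aldoc and Ldha each have 2 starts listed. The window of the other start held no TCACNCCAC in Aldoc and no ACGTG in Ldha. Capitals mark the core of the hypoxia response element, ACGTG or GCGTG on either strand, and, in Aldoc, also the sterol response element letters TCACNCCAC.
Slc16a1 (chr3:104638414-104638663, plus strand): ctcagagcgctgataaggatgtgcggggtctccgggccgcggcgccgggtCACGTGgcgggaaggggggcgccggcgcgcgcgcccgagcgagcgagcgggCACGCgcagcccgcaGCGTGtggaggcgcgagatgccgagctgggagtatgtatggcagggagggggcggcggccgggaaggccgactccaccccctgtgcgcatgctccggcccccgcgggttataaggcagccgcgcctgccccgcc
Aldoc (chr11:78322823-78323072, plus strand): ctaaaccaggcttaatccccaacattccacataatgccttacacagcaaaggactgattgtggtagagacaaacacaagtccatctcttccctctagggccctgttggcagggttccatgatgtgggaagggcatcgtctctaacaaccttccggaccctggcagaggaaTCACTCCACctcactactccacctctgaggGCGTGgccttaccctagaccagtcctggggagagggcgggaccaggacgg
Pgk1 (chrX:106186850-106187099, plus strand): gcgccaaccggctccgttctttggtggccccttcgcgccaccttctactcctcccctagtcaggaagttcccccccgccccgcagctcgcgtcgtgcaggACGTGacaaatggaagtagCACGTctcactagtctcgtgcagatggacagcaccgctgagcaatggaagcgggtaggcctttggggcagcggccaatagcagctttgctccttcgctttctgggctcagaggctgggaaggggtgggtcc
Ankrd37 (chr8:45999851-46000100, minus strand): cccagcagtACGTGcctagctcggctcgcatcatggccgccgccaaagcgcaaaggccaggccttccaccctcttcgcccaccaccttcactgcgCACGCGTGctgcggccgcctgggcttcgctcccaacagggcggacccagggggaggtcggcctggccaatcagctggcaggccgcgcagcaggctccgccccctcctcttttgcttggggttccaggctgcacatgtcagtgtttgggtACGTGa
Ldha (chr7:46845554-46845803, plus strand): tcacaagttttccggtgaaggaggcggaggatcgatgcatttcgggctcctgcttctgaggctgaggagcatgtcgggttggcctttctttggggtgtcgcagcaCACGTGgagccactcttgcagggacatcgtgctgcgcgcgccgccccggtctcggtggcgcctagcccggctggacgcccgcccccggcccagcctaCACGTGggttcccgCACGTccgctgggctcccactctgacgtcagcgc

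The ACGTG letters stood in both directions, as the palindrome CACGTG (also the core of an E-box), once in Slc16a1 and at 2 places in Ldha. Pgk1 held ACGTG at 2 places and Ankrd37 at 2, one of them within 6 bases of the start. The Aldoc window held no ACGTG but 1 GCGTG, and TCACTCCAC began 80 bases before the start. Over all 31 genes with an entry in the table, 44 windows were searched: 47.7% held ACGTG, against 16.6% of all 32851 windows, and 54.5% held GCGTG, against 28.2%. TCACNCCAC stood in 2 of the 44 windows, against 1.05% of all windows. The windows of these genes had a median GC content of 61.0%, against 52.4% over all windows, and the genes include known HIF targets, so these shares describe the set and no more.

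No member passed an adjusted p of 0.05 over all genes tested (limma, Benjamini-Hochberg), and 1 of 10972 genes did, 0.00911% higher and 0% lower. At an unadjusted p of 0.05, 2 members read lower and 0 higher, against 3.04% lower and 2.88% higher over all genes tested. The groups did not overlap for 3 lower and 1 higher of the 29 members, against 5.72% lower and 6.11% higher over all genes tested; these are 10.3% and 3.45% of the members. On average 19 of the 29 members read lower and 10 higher, where 48.3% and 51.7% of all genes tested did. The median member stood at 99.0% of control (log2 difference -0.01, against 0.01 over all genes tested). Differences ran between -0.43 and 0.18. Of the 29 members, 20 lay within 90% to 110% of control, as did 7331 of the 10972 genes tested. The 95% confidence interval stayed within 1.5-fold either way for 22 of 29 members (75.9%), against 80.8% of all genes tested.

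**Figure D1:**
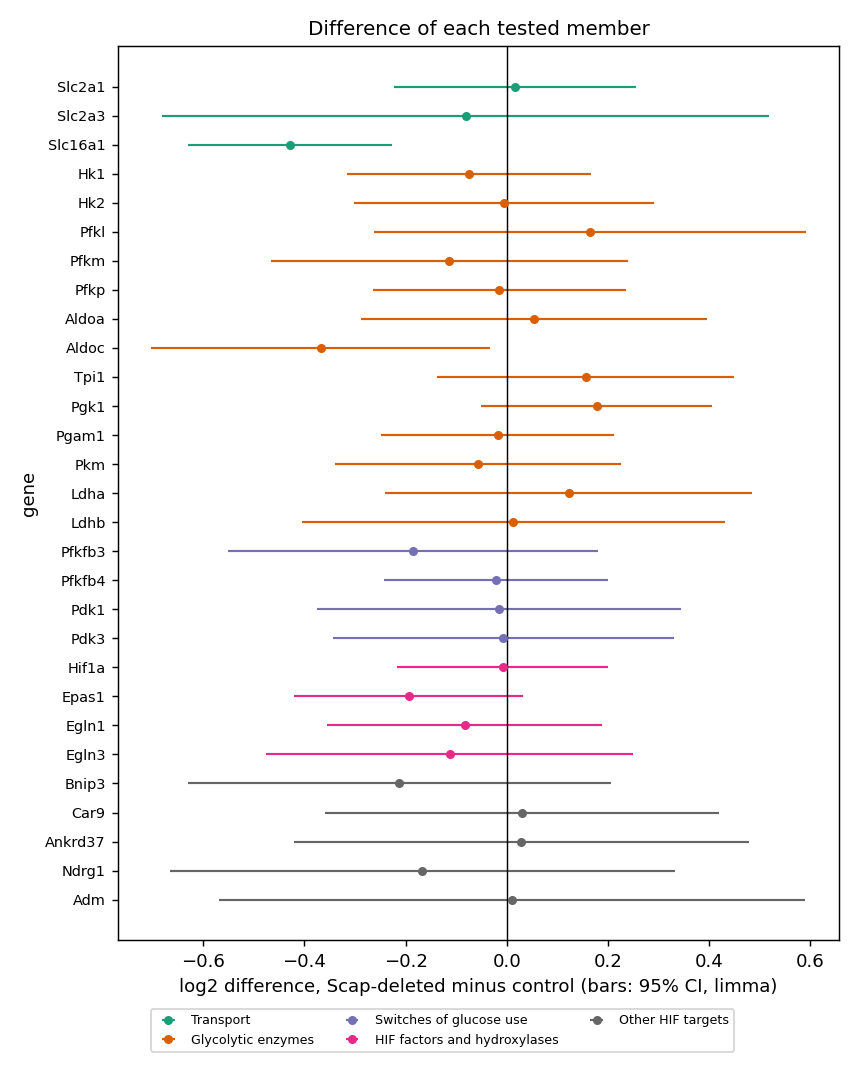
Log2 difference of each of the 29 tested members (x axis, Scap-deleted minus control), with its 95% confidence interval from limma, ordered by role from top to bottom. The intervals of Slc16a1 and Aldoc lie below 0, and those of the other 27 members cross it.

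The transporters held the member with the smallest p. Slc16a1 encodes the monocarboxylate transporter that moves lactate, pyruvate and ketone bodies across the plasma membrane. It read 3581, 3667 and 3783 in Scap-deleted lungs, against 4961, 4776 and 5116 in controls. Every Scap-deleted array lay well below every control array, and the spread within each group was small (3677 ± 101 and 4951 ± 170, SD, n = 3 each). The signal stood at 74.3% of control (95% confidence interval 64.6% to 85.4%, log2 difference -0.43, SE 0.09), rank 23 of the genes tested by p, limma adjusted p = 0.644. Over the other settings tried the limma adjusted p lay between 0.268 and 0.999. With the average of both its probe sets it fell below the brightness limit and was not tested. Within the pairs of arrays that share a number the log2 difference was -0.47, -0.38 and -0.44. A second probe set of Slc16a1 was too dim to compare, below the brightness limit on every array.

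The other lactate carrier, Slc16a3, which exports lactate from glycolytic cells, lay near or below the brightness limit at 284, 491 and 509 in Scap-deleted lungs, against 584, 482 and 572 in controls. Of the glucose transporters, Slc2a1, the carrier of most growing cells, read 4538, 4149 and 4521 in Scap-deleted lungs, against 4806, 4124 and 4147 in controls. The groups overlapped, and the log2 difference was 0.02 (SE 0.10, 95% confidence interval -0.22 to 0.26); the 2 other probe sets above the limit read 103% and 101% of control. Slc2a3, a high-affinity glucose transporter, read 1495, 1323 and 2006 in Scap-deleted lungs, against 1333, 1431 and 2463 in controls. Its highest array was number 3 in both groups, and its interval was wide, -0.68 to 0.52. Another Slc2a3 probe set above the limit read 110% of control, at 577, 477 and 552 in Scap-deleted lungs, against 454, 420 and 605 in controls. There the groups overlapped, and array 3 was the highest in controls only.

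Among the glycolytic enzymes, 6 of 13 tested members read higher and 7 lower on average, with a median at 99.6% of control. The hexokinases trap glucose as glucose 6-phosphate. Hk1 read 4541, 4476 and 4604 in Scap-deleted lungs, against 5197, 4267 and 4920 in controls (log2 difference -0.07, SE 0.10). Its second probe set read 2027, 2058 and 2201 in Scap-deleted lungs, against 3133, 2399 and 2336 in controls, 80.6% of control with no overlap, so the probe sets of Hk1 disagree on size. Hk2, the HIF-inducible hexokinase, read 3093, 3260 and 3634 in Scap-deleted lungs, against 3419, 2879 and 3764 in controls, a log2 difference of -0.01 (SE 0.13).

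Phosphofructokinase commits the sugar to glycolysis, and its liver, muscle and platelet subunits are encoded by separate genes. Pfkl read 7428, 8430 and 9873 in Scap-deleted lungs, against 8903, 5869 and 8405 in controls, so control array 2 lay below all others. Pfkm read 2468, 2207 and 3010 in Scap-deleted lungs, against 2819, 2375 and 3101 in controls, with array 2 lowest and array 3 highest in both groups. Pfkp read 2406, 2244 and 2596 in Scap-deleted lungs, against 2689, 2329 and 2307 in controls. Their log2 differences were 0.16 (SE 0.18), -0.11 (SE 0.15) and -0.01 (SE 0.11). A dimmer Pfkl probe set read 129% of control and the other 99.1%.

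The aldolases split fructose 1,6-bisphosphate, and the groups were separate for the brain-type gene. Aldoc read 1349, 1809 and 1931 in Scap-deleted lungs, against 2182, 2105 and 2204 in controls. All Scap-deleted arrays lay below all controls, with array 1 much the lowest. The signal stood at 77.5% of control (95% confidence interval 61.4% to 97.8%, log2 difference -0.37, SE 0.14, limma adjusted p = 0.806). Without Scap-deleted array 1 the log2 difference was -0.21. Aldoc no longer had an unadjusted p under 0.05 without that array, nor when any 1 of the 3 control arrays was left out, where the log2 difference was -0.39 to -0.35. A second probe set, below the brightness limit, averaged 137.4 in Scap-deleted lungs and 235.1 in controls. Aldoc is also carried in widely used lists of cholesterol homeostasis genes. Aldoa, the aldolase of muscle and most other tissues, read 12080, 14565 and 17344 in Scap-deleted lungs, against 14691, 12711 and 14581 in controls. The groups overlapped (log2 difference 0.05, SE 0.15), and its 4 other probe sets above the limit read between 88.4% and 111% of control.

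**Figure D2:**
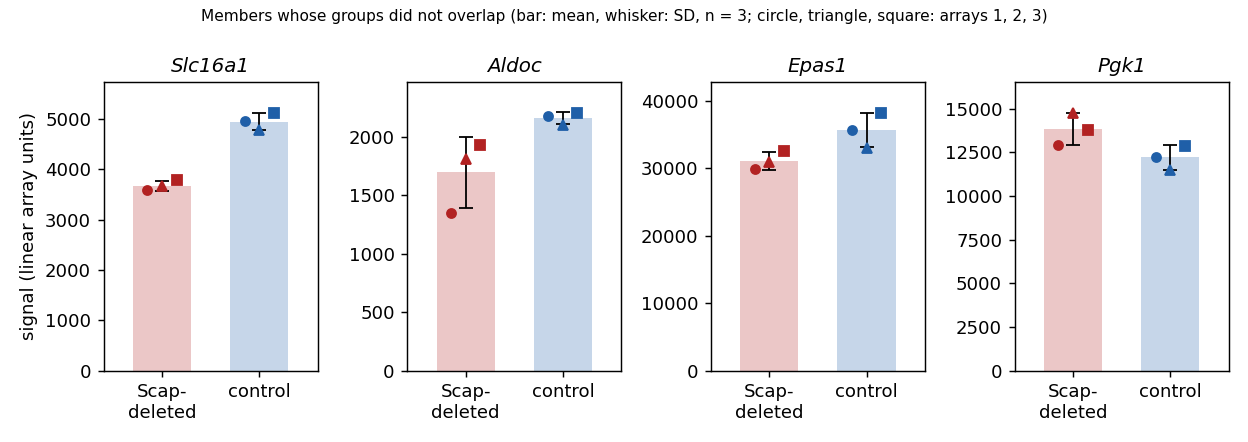
Signal of the 4 members whose groups did not overlap, in linear array units from 0; bars are means, whiskers SD, and the circle, triangle and square are arrays 1, 2 and 3 (n = 3 per group). Slc16a1 shows the widest gap relative to its spread, while the nearest arrays of Epas1 and of Pgk1 almost touch.

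Among the enzymes after the split of the sugar, Pgk1 read higher with a narrow gap. This phosphoglycerate kinase makes the first ATP of the pathway. It read 12899, 14741 and 13804 in Scap-deleted lungs, against 12253, 11486 and 12886 in controls. The lowest Scap-deleted array lay just above the highest control array, and the log2 difference was 0.18 (SE 0.10, 95% confidence interval -0.05 to 0.41, limma adjusted p = 0.878). A second probe set also had no overlap at 109% of control, and another read 133% with overlap. When the arrays were scaled to a common median the groups of Pgk1 overlapped.

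Tpi1, the triose phosphate isomerase, read 13326, 12162 and 14992 in Scap-deleted lungs, against 12991, 10559 and 12807 in controls. Each Scap-deleted array lay above the control of the same number, and the log2 difference of 0.16 (SE 0.13) was matched by 0.11 and 0.17 in the 2 other probe sets. Pgam1, a phosphoglycerate mutase, read 11034, 11078 and 9732 in Scap-deleted lungs, against 11350, 10549 and 10308 in controls. Pkm, the pyruvate kinase of most tissues, read 8747, 9706 and 8573 in Scap-deleted lungs, against 10729, 8301 and 9197 in controls. Both overlapped widely, with log2 differences of -0.02 (SE 0.10) and -0.06 (SE 0.12). Eno2, the neuronal enolase, lay below the limit at 244, 440 and 430 in Scap-deleted lungs, against 452, 440 and 424 in controls.

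The lactate dehydrogenase subunits close the pathway. Ldha, the HIF-inducible subunit that favours lactate, read 18726, 18089 and 21616 in Scap-deleted lungs, against 19175, 14312 and 20664 in controls. Control array 2 was far below the rest, and the log2 difference of 0.12 (SE 0.16) became -0.04 without it. Ldhb, the subunit that favours pyruvate, read 3896, 4618 and 5452 in Scap-deleted lungs, against 4054, 4095 and 5751 in controls. Array 3 was the highest in each group, the log2 difference was 0.01 (SE 0.18), and 3 further probe sets read 86.0%, 90.8% and 101% of control.

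The switches of glucose use showed no separation. Pfkfb3 and Pfkfb4 make fructose 2,6-bisphosphate, the activator of phosphofructokinase, and Pdk1 and Pdk3 phosphorylate and silence pyruvate dehydrogenase. Pfkfb3 read 1040, 864 and 924 in Scap-deleted lungs, against 1326, 1020 and 901 in controls, 88.0% of control with an interval of 68.3% to 113%. Pfkfb4 read 2628, 2757 and 2924 in Scap-deleted lungs, against 2837, 2645 and 2950 in controls. The groups of both overlapped. Pdk1 read 4507, 4171 and 3958 in Scap-deleted lungs, against 3532, 5281 and 4114 in controls, so that control arrays 1 and 2 enclosed all others. Pdk3 read 1569, 1772 and 1464 in Scap-deleted lungs, against 1799, 1323 and 1735 in controls. Pfkfb4, Pdk1 and Pdk3 had log2 differences of -0.02 (SE 0.09), -0.01 (SE 0.15) and -0.01 (SE 0.14). Other Pdk1 probe sets above the limit read 89.0% and 93.2% of control, and the average over all its probe sets, 1 of them below the limit, gave a log2 difference of -0.43.

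Of the HIF alpha subunits, Hif1a was level between the groups and Epas1 read lower. Hif1a read 10449, 11060 and 9939 in Scap-deleted lungs, against 10464, 10340 and 10790 in controls, a log2 difference of -0.01 (SE 0.09) whose 95% confidence interval of 86.1% to 115% of control was among the narrowest. HIF alpha subunits are controlled mainly by protein stability, which an RNA signal does not measure. Epas1 read 29908, 30970 and 32569 in Scap-deleted lungs, against 35739, 33084 and 38194 in controls. The groups did not overlap, but the highest Scap-deleted array came within a few percent of control array 2. The signal stood at 87.4% of control (log2 difference -0.19, SE 0.10, limma adjusted p = 0.865); its second, dimmer probe set read 85.0% with overlap, and scaling to a common array median made the groups of the brightest probe set overlap as well.

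Endothelial cells express Epas1 strongly, and 4 of 5 endothelial markers also read lower on average in Scap-deleted lungs. Their summed signal was 43555 to 46090 in Scap-deleted lungs and 45689 to 52139 in controls. Of 4 tested alveolar type II markers 3 read lower, with a summed signal of 164785 to 189051 in Scap-deleted lungs and 187333 to 233815 in controls. Of 4 leukocyte markers 2 read lower, and their sum was 39798 to 56399 in Scap-deleted lungs and 61025 to 75238 in controls, mostly through Lyz2, which alveolar type II cells also express. The part of these cell types in the values of Epas1, Slc16a1 and Aldoc was not tested. Neuronal and neuroendocrine cells, which are rich in Eno2 and Aldoc, had 1 of 6 listed markers above the brightness limit, so their level could not be followed.

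The oxygen-sensing prolyl hydroxylases Egln1 and Egln3, the second strongly induced by HIF, read slightly lower on average. Egln1 read 5689, 6204 and 7268 in Scap-deleted lungs, against 6528, 6526 and 7153 in controls. Egln3 read 2866, 3230 and 3844 in Scap-deleted lungs, against 3481, 3073 and 4201 in controls. For both genes the groups overlapped, these probe sets were highest in the arrays numbered 3, and the log2 differences were -0.08 (SE 0.12) and -0.11 (SE 0.16). A second Egln1 probe set read 87.6% of control, at 2200, 2377 and 1974 in Scap-deleted lungs, against 2792, 2318 and 2375 in controls. There array 3 was the lowest of the Scap-deleted arrays and not the highest control. The second Egln3 probe set read 93.1% of control and was highest in array 3 of both groups.

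The remaining HIF targets had wide spreads and no separation. Bnip3, a mitochondrial protein that promotes mitophagy, read 7268, 8617 and 11103 in Scap-deleted lungs, against 11195, 8638 and 11182 in controls. Nearly all of its average difference (log2 -0.21, SE 0.18) came from the pair numbered 1, at -0.62, while the pair numbered 3 gave -0.01 and the signals of the pair numbered 2 were nearly equal. Ndrg1, a stress-induced cytoplasmic protein, read 4689, 4432 and 6067 in Scap-deleted lungs, against 5754, 4228 and 7326 in controls. Its log2 difference was -0.17 (SE 0.21), and its 4 other probe sets read between 79.1% and 89.2% of control. Ankrd37, an ankyrin-repeat protein and a direct HIF target, read 4374, 4287 and 6178 in Scap-deleted lungs, against 4763, 3926 and 5831 in controls.

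Adm, which encodes the vasodilator adrenomedullin, read 629, 826 and 1315 in Scap-deleted lungs, against 895, 793 and 942 in controls. The Scap-deleted arrays enclosed all controls, so the near-zero log2 difference of 0.01 had one of the largest errors of the set (SE 0.25). A second Adm probe set above the limit read 516, 697 and 1266 in Scap-deleted lungs, against 792, 839 and 843 in controls. Its log2 difference was -0.10, and the groups overlapped there too. Car9, a carbonic anhydrase that marks hypoxic cells, was the dimmest tested member, with 802.5, 763 and 541 in Scap-deleted lungs and 761, 650 and 629.5 in controls. It ran against the other HIF targets, lowest in array 3 of each group. The log2 differences of Ankrd37 and Car9 were both 0.03 (SE 0.19 and 0.17).

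**Figure D3:**
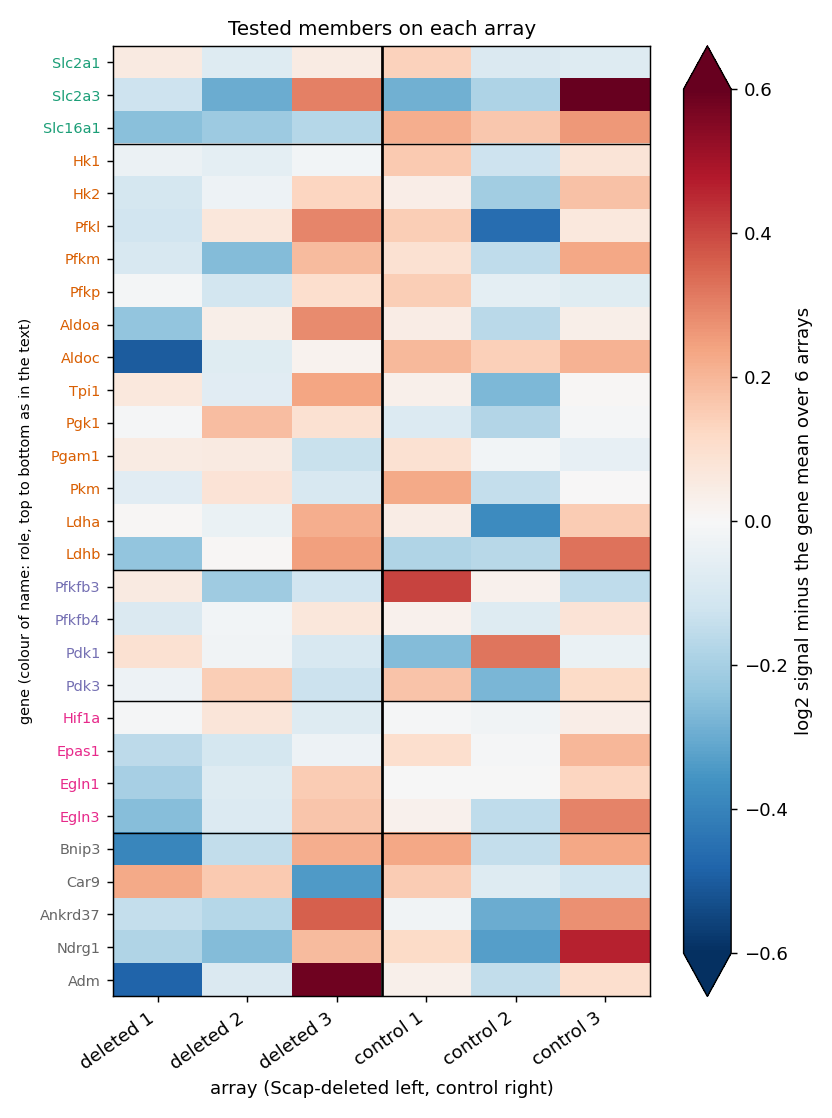
Log2 signal of each tested member (rows, grouped by role in the order of the text) on each array (columns, Scap-deleted left of the line, control right), minus the mean of that gene over the 6 arrays; red is above and blue below the mean. Slc16a1 changes colour at the line, while many HIF targets and enzymes are red in array 3 of both groups and blue in control array 2.

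In 14 of 29 members the array numbered 3 was the highest of its group in both groups, against 21.8% of all genes tested, and in 2 it was the lowest in both, against 15.1%. The median member read higher in array 3 than in the mean of the other arrays by a log2 of 0.19 in Scap-deleted lungs and 0.13 in controls, where all genes gave 0.01 and 0.04. Such shifts reached 0.51 in Scap-deleted lungs and 0.83 in controls for Slc2a3, and 0.87 in Scap-deleted lungs and 0.16 in controls for Adm. For Ndrg1 they were 0.41 in Scap-deleted lungs and 0.57 in controls, and for Ankrd37 0.51 in Scap-deleted lungs and 0.43 in controls. Control array 2 was the lowest control for 22 of 29 members, against 43.9% of all genes tested.

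Marker genes of several cell types also differed between the arrays. The 3 airway club cell markers were also highest in array 3 of both groups, with summed signals of 125379 to 186872 in Scap-deleted lungs and 146791 to 214802 in controls. Leukocyte markers averaged highest in array 3 of both groups as well, at 0.17 log2 from their gene means in Scap-deleted lungs and 0.16 in controls. Smooth muscle and matrix fibroblast markers averaged lowest in control array 2, at -0.26 and -0.17. Markers of heart and skeletal muscle, tissues rich in glycolytic enzymes, averaged 0.36, -0.28 and 0.17 log2 from their gene means in Scap-deleted arrays. In controls they averaged 0.05, -0.24 and -0.06, with array 2 lowest in each group. The tested members averaged -0.11, -0.06 and 0.09 in Scap-deleted arrays and 0.07, -0.12 and 0.12 in controls. Among the controls, the muscle markers and the members were both lowest in array 2. Among the Scap-deleted arrays, the muscle markers were highest in array 1 and the members were lowest there. Nppa, below the limit and left out of the muscle average, read 11125 in Scap-deleted array 1 and at most 350.4 on every other array. The sources used here do not say what the number 3 stands for, and the part of these cells or of a batch in the members' values was not tested. With the replicate number as a block, 2 members had an unadjusted p of 0.05 or less, against 8.7% of all genes tested, and none passed after adjustment; the smallest adjusted p of a member was 0.345, for Slc16a1.

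**Figure D4:**
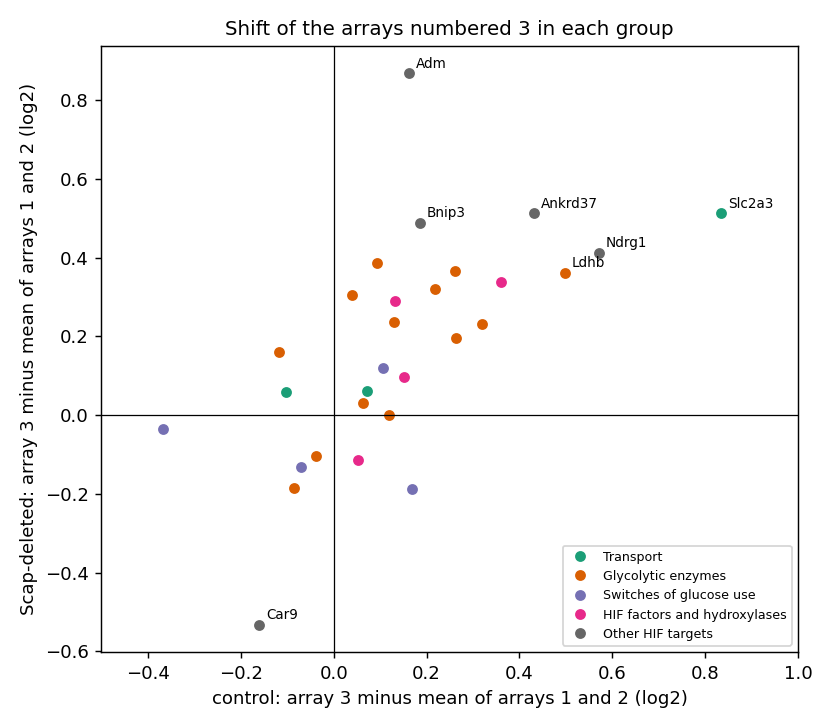
Shift of the array numbered 3 from the mean of arrays 1 and 2 for each tested member, in Scap-deleted lungs (y axis, log2) and in controls (x axis, log2); points are genes, coloured by role. Most points lie in the upper right, led by Slc2a3, Ndrg1, Ankrd37 and Adm, and Car9 lies at the lower left.

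Within pairs of the same number, which for arrays 1 and 2 rest on the titles alone, the set did not keep a direction. In the pair numbered 1, 24 of 29 members read lower in the Scap-deleted lung, with a median log2 difference of -0.19. In the pair numbered 2, 10 read lower, with a median of 0.07, and in the pair numbered 3, 18 read lower, with a median of -0.05. All genes tested had medians of -0.00261, 0.02 and -0.01 in these pairs. In all 3 pairs 5 members read lower, against 15.3% of all genes tested, and 2 read higher in all 3, against 15.6%.

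Other genes of these pathways were likewise close to control. Of 88 listed genes 62 were tested, 30 higher and 32 lower on average. None passed an adjusted p of 0.05 or an unadjusted p of 0.05 in limma, where 5.92% of all genes tested passed the unadjusted limit. With the replicate block 1 in each direction reached an unadjusted p of 0.05, Slc2a4 and Angptl4, against 8.7% of all genes tested. The groups did not overlap in 3 of the 62 (4.84%), 2 lower and 1 higher, against 11.8% of all genes tested. Among 9 tested isozymes and transporters, 4 read higher, and the smallest p belonged to Slc2a4, the insulin-regulated glucose transporter, at 84.3% of control (log2 difference -0.25, SE 0.11, limma adjusted p = 0.849). Pdk4, the pyruvate dehydrogenase kinase induced by fasting, stood at 83.8%, and Pfkfb2 at 110%, although the mean of all Pfkfb2 probe sets gave a negative difference.

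Of 12 tested HIF pathway genes 6 read lower, led by Hif3a, an alpha subunit that can restrain the others, with 14428 ± 1722 in Scap-deleted lungs and 17064 ± 881 in controls (log2 difference -0.25, SE 0.11, limma adjusted p = 0.849, no overlap). Arnt2, a relative of the stable HIF partner, stood at 89.7% and Elob, of the ubiquitin ligase that binds hydroxylated alpha subunits, at 108% of control. Of 24 other hypoxia-induced genes 13 read higher. Angptl4, an inhibitor of lipoprotein lipase, stood at 122% of control (log2 difference 0.29, SE 0.17). Lox, which cross-links collagen and elastin, stood at 86.6%, and the chemokine receptor Cxcr4 at 87.9%. In 11 of these 24 genes, array 3 was the highest in both groups, against 21.8% of all genes tested.

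At the entry of pyruvate into mitochondria 7 of 10 tested genes read lower. Dld, a subunit of pyruvate dehydrogenase, read higher at 111% of control with no overlap, but the mean over its probe sets gave a log2 difference of -0.50, so the probe sets disagree. Pdhx, another subunit, averaged 950 in Scap-deleted lungs and 1061 in controls, and Pcx, pyruvate carboxylase, stood at 111% of control. In the pentose phosphate pathway, which makes NADPH for lipid synthesis, 3 of 7 tested genes read lower. Tkt, transketolase, stood at 86.2%, Rpia at 88.1% and Pgls, 6-phosphogluconolactonase, at 113% of control, each with overlapping groups.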

How the data were processed

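Arrays of 3 Scap-deleted and 3 control lungs were analysed; the sample titles gave groups and numbers. The authors deposited intensity values on a linear scale for 45101 probe sets. Per the submitters' processing notes RMA was used, yet RMA output is log2 and quantile normalized and these columns are neither: their lowest values are 0.2 to 0.6, and every array averages 1500 once 2% is trimmed from each end. The scaling software and any background step are therefore unknown here, no detection calls were used, and dim signals may be background. Genes were not centred.

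The signal was log2-transformed without a pseudocount. After removal of 64 control probe sets, the platform annotation gave 34945 probe sets a single symbol, 932 more than 1 and 9160 no symbol. limma 3.58.1 (R 4.3.3, lmFit and eBayes) was fitted to 10972 genes, with Benjamini-Hochberg adjustment. Its steps were also run on simulated data with independent noise for each gene and array. That simulation held no shift shared by the arrays numbered 3, so it does not cover such a shift. The number of arrays limits the precision. Pairing was checked by correlating deviations from group means. Same-numbered samples gave 0.17, 0.20 and 0.43, although control 2 with Scap-deleted 1 gave 0.18. Deviations cancel out within a group, so the values for arrays 1 and 2 depend on the match of the arrays numbered 3. They cannot show that arrays 1 and 2 are paired, and the numbers in the titles were used as pairs. Alternatives were other scalings, filters and probe set rules, a pseudocount of 50, an intensity trend, the replicate block and left-out arrays.

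The members and the lists of other genes and markers were chosen with earlier results of these data known. Every member with a probe set is named; each other pathway list gives its 3 genes of smallest p. Alternatives for those genes were added after the data were seen. Promoter windows come from RefSeq's GRCm38.p6 table, which matched 31 of the 35 symbols.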

Additional observations from a re-analysis of the deposited data

How the results depend on the processing

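No member passed an adjusted p of 0.05 under any of the 15 alternatives, and the members' median log2 difference stayed between -0.10 and 0.0081. The 2 members at an unadjusted p of 0.05 became 1 with arrays at a common median (Slc16a1), with dim genes kept (Slc16a1) and when all probe sets of a gene were averaged (Aldoc; Slc16a1 then lay below the brightness limit and was not tested), and 1 to 2 when 1 array was left out (without control array 2 they were Slc16a1 and Epas1). With an intensity trend they became 3, Epas1 being added. The 4 members with separate groups became 2 with arrays at a common median (Slc16a1 and Aldoc), 7 without both arrays numbered 3, and 4 to 7 when 1 array was left out, the 7 without Scap-deleted array 3. Fewer arrays overlap less often: the share over all genes tested was 11.8% with all arrays, 39.0% without both arrays numbered 3 and 24.5% without Scap-deleted array 3, so 7 of 29 members is no gain over the background. Averaging all probe sets of a gene gave 3 (Egln1, Hk1 and Pgk1), with dim and bright probe sets weighted alike. The replicate block left these counts at 0, 2 and 4.

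Of 44 single genes, 23 kept their direction throughout, and the others had a log2 difference of at most 0.17 in size. With arrays at a common median the log2 difference was 0.00897 for Hk2, 0.000103 for Pfkp, 0.0079 for Pdk3 and 0.0067 for Hif1a; with quantile normalization it was -0.0083 for Adm. With all probe sets averaged it was -0.0072 for Aldoa, -0.081 for Ldhb, -0.045 for Adm, -0.12 for Pfkfb2 and -0.50 for Dld. Without both arrays numbered 3 it was -0.037 for Slc2a1, 0.026 for Slc2a3, 0.017 for Hk2, -0.043 for Aldoa, 0.015 for Pgam1, 0.0058 for Pdk1, 0.11 for Pdk3, 0.048 for Hif1a and -0.22 for Adm. When 1 array was left out, it ran from -0.021 to 0.089 for Slc2a1, -0.25 to 0.20 for Slc2a3, -0.11 to 0.082 for Hk2, -0.022 to 0.28 for Pfkl, -0.068 to 0.057 for Pfkp, -0.074 to 0.19 for Aldoa, -0.0498 to 0.044 for Pgam1, -0.14 to 0.042 for Pkm, -0.036 to 0.23 for Ldha, -0.11 to 0.18 for Ldhb, -0.064 to 0.016 for Pfkfb4, -0.15 to 0.14 for Pdk1, -0.15 to 0.076 for Pdk3, -0.047 to 0.0299 for Hif1a, -0.22 to 0.0081 for Egln3, -0.077 to 0.21 for Car9, -0.14 to 0.17 for Ankrd37, -0.37 to 0.024 for Ndrg1 and -0.28 to 0.25 for Adm. The cause was not tested.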
